A study of Mus musculus with 9 samples.

Results

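The genes described here are the mouse MHC class II genes and Ciita, 10 genes picked by symbol from the 30865 of the deposited count table: H2-Aa, H2-Ab1, H2-Eb1, H2-DMa, H2-DMb1, H2-DMb2, H2-Oa, H2-Ob, Cd74 and Ciita. Each symbol stood on 1 row, and all 10 passed the filter on low counts. RNA of mouse lung was sequenced in 9 libraries, 3 from normoxia, 3 from hypoxia and 3 whose treatment label is a knockdown of Hif-1α after hypoxia. By its label the last group had hypoxia too, and it is called the knockdown-labelled group here, since the knockdown was not seen in the Hif1a transcript. The labels give no strain, age, oxygen level, exposure time, knockdown agent or target cell, and do not say whether each library came from its own animal, so the p-values measure the spread between these libraries.

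Class II molecules display peptides from the endosomes of antigen-presenting cells to CD4 T cells. H2-Aa and H2-Ab1 encode the 2 chains of I-A, and H2-Eb1 the beta chain of I-E. Cd74, the invariant chain, guides new class II dimers to endosomes and fills their groove until H2-DM (H2-DMa with H2-DMb1 or H2-DMb2) exchanges the remaining fragment for a peptide. H2-O (H2-Oa with H2-Ob) restrains H2-DM and is known chiefly from B cells. Ciita encodes a coactivator that switches class II genes on, though its part in each gene named here was not tested. It is itself induced by interferon gamma, with Irf1 among the factors that act on it. In the lung, dendritic cells, B cells, macrophages and also alveolar type 2 cells carry class II.

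Ciita acts on class II promoters through proteins bound to an X box and a Y box, which stand in a fixed order upstream of the start site, so the promoters of the genes are the sequences shown here. RefSeq windows (GRCm38.p6) were at hand for 7 of the 10 genes, and the 250 bases before each start were searched on both strands. The X box searched was AGNAAC followed directly by NGATG, with at most 2 mismatches at its 9 fixed letters, and the Y box ATTGG. Alone, such an X box was found in 49.2% and a Y box in 33.8% of all 32851 windows. The pair, with the Y box 10 to 30 bases downstream of the X box and the motifs not overlapping, was found in 4 of the 7 genes each time on the gene's strand, and in 1.21% of the windows (0.615% on the gene's strand). These stretches are given 5′ to 3′ on the plus strand, with the X box and the Y box in capitals. For H2-DMb1 only 30 bases around the X box are given, since a GENCODE exon covers the stretch. In the windows of H2-Aa, H2-DMa and H2-Oa these letters were not found as a pair. Among these 4 genes, H2-Eb1 and H2-DMb1 were higher in hypoxia while H2-DMb2 and H2-Ob did not pass the test there, and H2-DMb1 and H2-DMb2 hold the boxes 23 bases apart alike.
H2-Eb1, chr17:34305763-34305820: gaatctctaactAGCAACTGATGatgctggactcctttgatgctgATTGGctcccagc
H2-DMb1, chr17:34153087-34153116: ggtttacctAGTAACTGATGatgctaggct
H2-DMb2, chr17:34145113-34145171: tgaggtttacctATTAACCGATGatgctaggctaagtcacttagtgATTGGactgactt
H2-Ob, chr17:34238805-34238860: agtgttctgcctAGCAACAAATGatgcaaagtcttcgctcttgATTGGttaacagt

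Library totals ran from 15566485 to 18046442 counts. Levels are TMM-scaled CPM, counts brought to a common library size, and 3 counts, taken as the floor of detection, corresponded to 0.166 to 0.196 CPM per library, which covers counting error only. The libraries held lung RNA: summed over 9 alveolar type 2 markers, the level was 27750 to 43390 CPM, against 3.40 to 18.4 CPM over 6 skeletal muscle markers, a tissue that the sample titles name. Hif1a itself was at 78.6 to 87.8 CPM in normoxia, 88.6 to 98.3 CPM in hypoxia and 85.0 to 86.4 CPM under the knockdown label. The last group's log2 fold change to hypoxia was -0.13 (adjusted p = 0.62), so a lower Hif1a transcript was not detected and the differences below are between labels. In whole-lung RNA, more cells of a type and more RNA per cell cannot be told apart.

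The 10 genes differed widely in level. Per kilobase of annotated exon, Cd74 was the highest in normoxia at 420 ± 17 CPM per kb (SD, n = 3). H2-Eb1 (113 ± 14) and H2-Ab1 (108 ± 7.7) followed with overlapping ranges, and H2-Aa stood at 85.5 ± 10 CPM per kb. In CPM their order was the reverse (H2-Aa 325, H2-Ab1 277 and H2-Eb1 221). The order per kilobase thus rests on the merged exon lengths used, here 3798, 2568 and 1944 bases. H2-DMb1 was at 27.7 ± 0.56 CPM per kb, above H2-DMa (11.4 ± 0.94), whose range overlapped that of H2-DMb2 (9.17 ± 3.1). In CPM, H2-DMb1 (46.6) and H2-DMa (39.4) were closer, and their merged exon lengths were 1681 and 3448 bases. H2-Ob came next at 6.52 ± 3.0 CPM per kb and overlapped H2-DMb2. Ciita (2.97 ± 0.63) and H2-Oa (2.23 ± 0.83 CPM per kb) were the lowest, and their ranges overlapped. In CPM, Ciita (28.3) was above H2-DMb2 (16.0) in normoxia already. The order per kilobase changed for Ciita, which was the ninth gene in both other groups and the seventh in the knockdown-labelled one. It was at 14.5 ± 0.66 CPM per kb there, above each library's value of H2-DMb2. H2-Ea, the partner chain of H2-Eb1 that GENCODE lists as a polymorphic pseudogene, had at most 1 count in a library and was not tested, and the further beta chain gene H2-Eb2 had 40 to 108 counts.

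**Figure D1:**
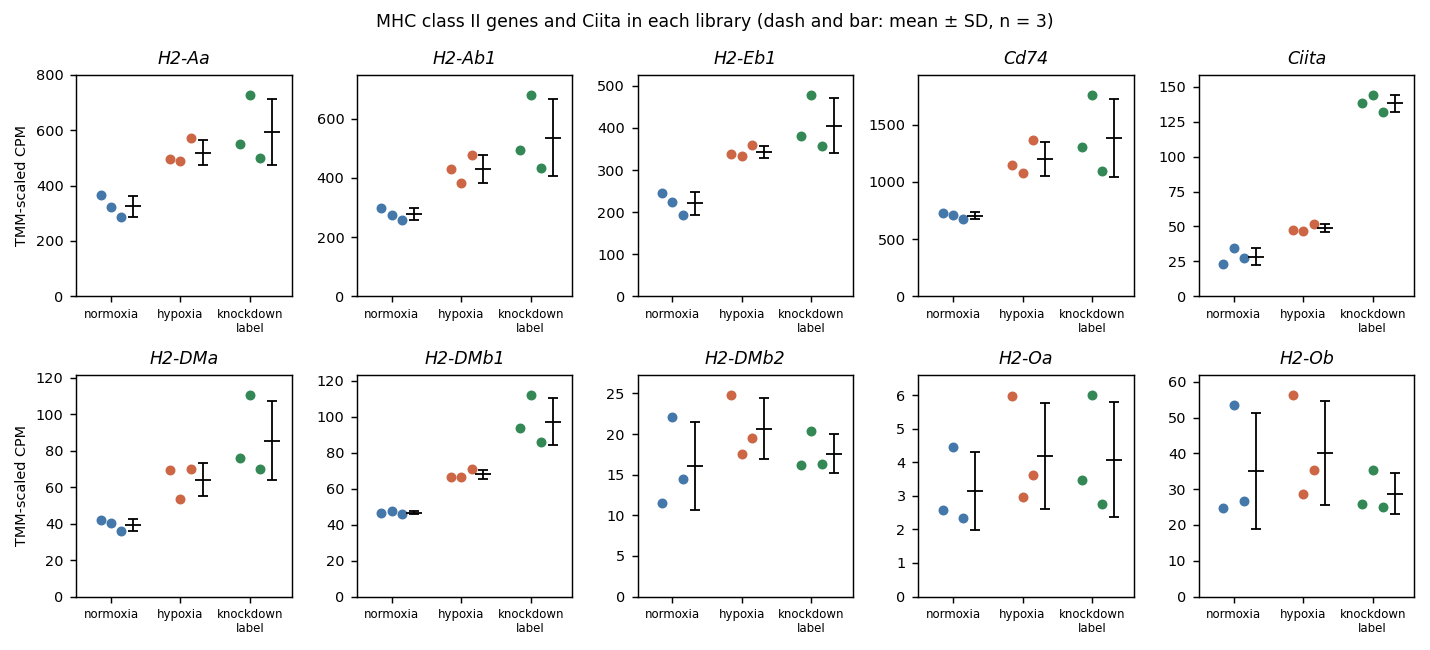
Levels of the 10 genes in TMM-scaled CPM (vertical axes from 0, scaled per gene) in the 3 libraries of each group, with the mean and SD beside the points. Ciita forms 3 separate steps with its highest values, 132 to 144 CPM, in the knockdown-labelled group, while H2-DMb2, H2-Oa and H2-Ob overlap between all groups.

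Hypoxia libraries held more class II RNA than normoxia libraries. In this comparison 7 of the 10 genes were higher in hypoxia, by factors of 1.46 to 1.72, and none was lower: H2-Aa, H2-Ab1, H2-Eb1, Cd74, H2-DMa, H2-DMb1 and Ciita (edgeR quasi-likelihood test, Benjamini-Hochberg adjustment over 17578 genes, threshold 0.05). Over all tested genes, 2.77% were called higher and 1.45% lower. The median log2 fold change of the 10 genes was 0.64, beside -0.01 over all tested genes. The same 7 genes were those whose groups did not overlap, with hypoxia higher, which held for 10.6% of all tested genes.

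Of the peptide-binding chains, H2-Aa stood at 364, 323 and 288 CPM in normoxia and at 497, 489 and 571 CPM in hypoxia. Each hypoxia library lay above each normoxia library, and the log2 fold change was 0.68 (SE 0.14, adjusted p = 0.024). H2-Ab1 went from 298, 275 and 259 CPM to 430, 383 and 478 CPM (0.63, SE 0.15, adjusted p = 0.043). H2-Eb1 went from 245, 223 and 193 CPM to 338, 333 and 360 CPM (0.64, SE 0.12, adjusted p = 0.016). The chains of I-A and the beta chain of I-E thus differed between the groups by nearly the same factor, and normoxia replicate 3 was the lowest library for all 3 of these genes.

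The invariant chain gene Cd74 was at 727, 714 and 673 CPM in normoxia and at 1151, 1079 and 1368 CPM in hypoxia (log2 fold change 0.77, SE 0.16, adjusted p = 0.022). Together, H2-Aa, H2-Ab1, H2-Eb1 and Cd74 took 0.141% to 0.159% of all counts in the normoxia libraries and 0.231% to 0.282% in the hypoxia libraries. Ciita, the coactivator, was at 23.0, 34.8 and 27.2 CPM in normoxia and at 47.5, 47.1 and 52.0 CPM in hypoxia, with the smallest adjusted p of the 10 genes (0.79, SE 0.13, adjusted p = 0.0087). Its hypoxia values lay close together, whereas in normoxia replicate 1, the library lowest in Ciita, was the highest of its group in H2-Aa, H2-Ab1 and H2-Eb1.

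Of the peptide exchange genes, H2-DMa was at 42.2, 40.2 and 35.9 CPM in normoxia and at 69.2, 53.6 and 69.7 CPM in hypoxia (log2 fold change 0.70, SE 0.17, adjusted p = 0.043). H2-DMb1, the beta chain that pairs with it, was at 46.4, 47.7 and 45.8 CPM and then at 66.3, 66.4 and 70.9 CPM (0.54, SE 0.10, adjusted p = 0.013), with little spread in either group. The second beta chain gene, H2-DMb2, was at 11.6, 22.1 and 14.5 CPM in normoxia and at 24.8, 17.6 and 19.5 CPM in hypoxia, and the groups overlapped (0.36, 95% interval -0.13 to 0.85, adjusted p = 0.45). Transcripts of H2-DMb1 and H2-DMb2 were 94.4% identical over 1255 aligned bases, and 27.2% of the 50-base windows of H2-DMb1 also occur in H2-DMb2, so reads could be split between these genes and each one's count is uncertain to that extent.

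The H2-O genes did not pass. H2-Ob was at 24.8, 53.6 and 26.8 CPM in normoxia and at 56.3, 28.5 and 35.2 CPM in hypoxia (log2 fold change 0.19, 95% interval -0.49 to 0.87, adjusted p = 0.82). H2-Oa was at 2.59, 4.47 and 2.34 CPM and at 5.98, 2.96 and 3.62 CPM (0.42, 95% interval -0.43 to 1.26, adjusted p = 0.65), from 39 to 108 counts a library. In both genes normoxia replicate 2 and hypoxia replicate 1 were the high libraries of their groups, and the intervals include the change seen in H2-Aa.

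Without normoxia replicate 3 none of the 10 genes passed in edgeR, and 7 had an unadjusted p under 0.05 there. Over all tested genes, 138 of 18024 were called higher in that setting, beside 487 of 17578 with all libraries. With all libraries, 7 passed in DESeq2 and 5 in limma-voom, where H2-Ab1 and H2-DMa did not pass. DESeq2 called 814 and limma-voom 267 of the 17578 tested genes higher. The number that passed was 1 without hypoxia replicate 3, 2 without hypoxia replicate 1, 3 without normoxia replicate 2, 4 without normoxia replicate 1 and 5 without knockdown-labelled replicate 1, while the log2 fold changes of the 7 genes stayed between 0.51 and 0.96 in all alternatives. Over all tested genes, the numbers called higher in these settings were, in the same order, 206, 201, 301, 285 and 367.

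**Figure D2:**
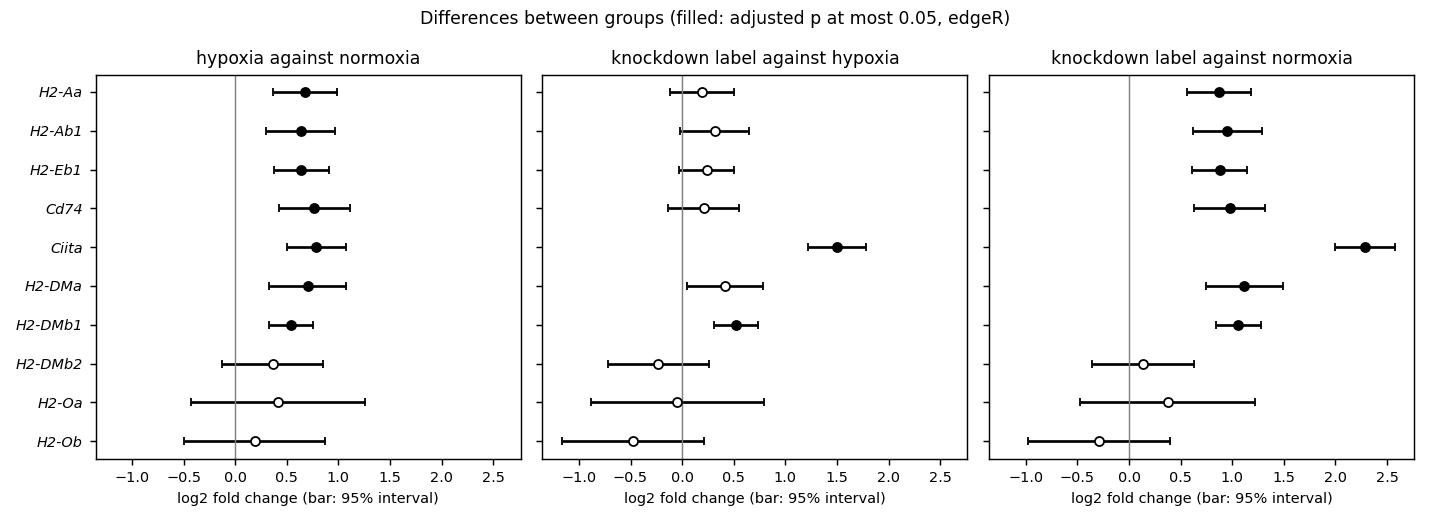
Log2 fold changes (horizontal axis) with 95% intervals for the 10 genes in the 3 comparisons, with filled points for an adjusted p of at most 0.05 in edgeR. In the middle panel Ciita stands apart at 1.50, and H2-DMb2, H2-Oa and H2-Ob, the bottom rows, have intervals that include 0 in every panel.

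Between the knockdown-labelled and the hypoxia libraries Ciita went further up, while most of the other genes did not pass the test. In this comparison 2 of the 10 genes were higher, Ciita and H2-DMb1, beside 1.26% of all tested genes, and none was lower, beside 0.449%. The median log2 fold change of the 10 genes was 0.22 and that of all tested genes 0.00. The groups did not overlap for Ciita, H2-DMb1 and H2-DMa, all higher in the knockdown-labelled group, which held for 8.58% of all tested genes.

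Ciita stood at 138, 144 and 132 CPM in the knockdown-labelled libraries against 47.1 to 52.0 CPM in hypoxia. The log2 fold change was 1.50 (SE 0.13, adjusted p = 7.6e-05), a factor of 2.83, and it passed in each of the 16 alternative analyses, with adjusted p between 2.5e-24 and 0.00074. H2-DMb1 was at 93.6, 112 and 86.1 CPM, above its 66.3 to 70.9 CPM in hypoxia (0.52, SE 0.10, adjusted p = 0.021). Its call was lost in 8 of 16 alternatives, among them leaving out normoxia replicate 3, any hypoxia replicate, or knockdown-labelled replicate 1 or 2, at adjusted p of up to 0.11 and log2 fold changes of 0.40 to 0.55.

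For the other class II genes the knockdown-labelled libraries were uneven, and replicate 2 was the highest in each. H2-Aa was at 550, 728 and 501 CPM (log2 fold change to hypoxia 0.19, 95% interval -0.11 to 0.50, adjusted p = 0.71). H2-Ab1 was at 495, 681 and 432 CPM (0.32, 95% interval -0.02 to 0.65, adjusted p = 0.49). H2-Eb1 was at 380, 479 and 357 CPM (0.24, 95% interval -0.03 to 0.50, adjusted p = 0.52). In each of these genes, the ranges of the groups overlapped.

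Cd74 was at 1301, 1761 and 1095 CPM in the knockdown-labelled libraries (0.21, 95% interval -0.13 to 0.55, adjusted p = 0.72), and its difference from hypoxia was -0.01 without knockdown-labelled replicate 2. H2-DMa was at 76.0, 111 and 70.1 CPM (0.41, 95% interval 0.05 to 0.78, adjusted p = 0.37), each above the hypoxia libraries. None of the intervals of these 5 genes reached the lower bound of the Ciita interval, which ran from 1.22 to 1.78.

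H2-DMb2, H2-Oa and H2-Ob gave values at or below 0 in this comparison. H2-DMb2 was at 16.1, 20.4 and 16.3 CPM (-0.23, 95% interval -0.72 to 0.26, adjusted p = 0.80). H2-Oa was at 3.46, 6.01 and 2.75 CPM (-0.04, 95% interval -0.88 to 0.79, adjusted p = 0.98). H2-Ob was at 25.9, 35.3 and 25.1 CPM (-0.48, 95% interval -1.17 to 0.21, adjusted p = 0.66). All 3 overlapped with hypoxia, and the interval of H2-Oa is the widest of the 10 genes.

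Between the knockdown-labelled and the normoxia libraries, which share their libraries with the other comparisons, 7 of the 10 genes were higher, beside 4.79% of all tested genes, and none was lower, beside 3.44%. They were H2-Aa (log2 fold change 0.87, adjusted p = 0.0036), H2-Ab1 (0.95, adjusted p = 0.0034), H2-Eb1 (0.88, adjusted p = 0.0013), Cd74 (0.98, adjusted p = 0.0034), H2-DMa (1.12, adjusted p = 0.0024), H2-DMb1 (1.06, adjusted p = 7.1e-05) and Ciita (2.29, adjusted p = 2.7e-06). All 7 passed in each alternative, and their groups did not overlap, which held for 14.5% of all tested genes in this direction. H2-DMb2 (0.13, 95% interval -0.36 to 0.63), H2-Oa (0.37, 95% interval -0.48 to 1.22) and H2-Ob (-0.29, 95% interval -0.98 to 0.40) did not pass. In an F-test over the 3 groups the 7 genes differed as well, where 7.95% of all tested genes did, and without normoxia replicate 3 it called 4 of them.

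Within a library, the ratio of each class II gene to Ciita does not depend on scaling. Normoxia libraries had 15.8, 9.27 and 10.6 H2-Aa counts per Ciita count, and hypoxia libraries 10.48, 10.37 and 10.98. In the knockdown-labelled libraries the ratio was 3.98, 5.04 and 3.80, below each other library. For Cd74 the ratio was 20.5 to 31.6 in normoxia, 22.9 to 26.3 in hypoxia and 8.30 to 12.2 in the knockdown-labelled group. For H2-DMb1 it was 1.37 to 2.02, 1.37 to 1.41 and 0.653 to 0.775. Of the 9 class II genes, each had a ratio to Ciita that was lower in all knockdown-labelled libraries than in all hypoxia libraries (exact permutation test, two-sided, p = 0.1 for each, the smallest that 3 against 3 libraries allow). These 9 ratios share Ciita as their denominator, which was itself higher by a factor of 2.83, so they are not separate results. A gene with no change would give a lower ratio too, and ratios of genes outside the class to Ciita were not taken. Between hypoxia and normoxia the ratios overlapped in each of the 9 genes, and their exact permutation p was 0.2 to 0.8.

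**Figure D3:**
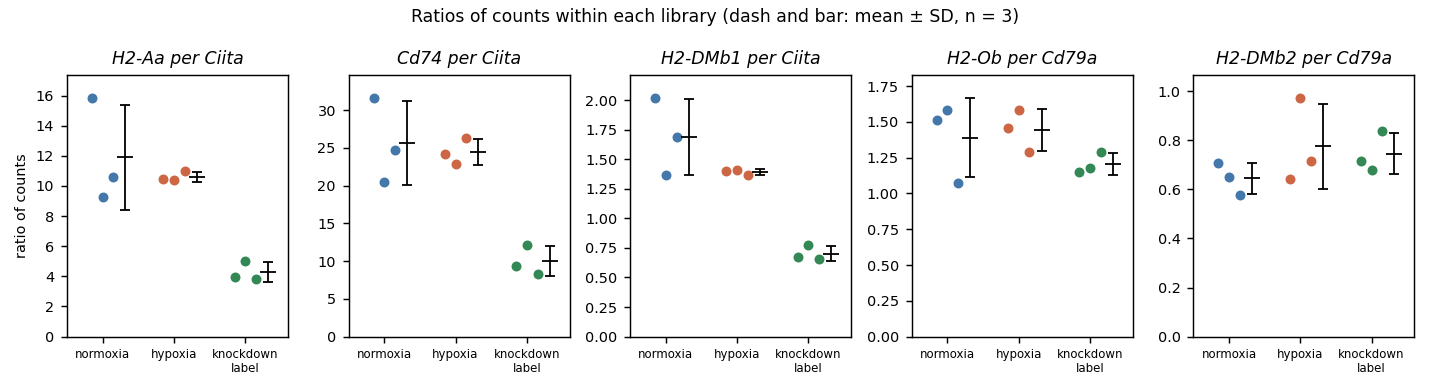
Ratios of counts within each library (vertical axes from 0), with the mean and SD beside the 3 libraries of each group. The ratios of H2-Aa, Cd74 and H2-DMb1 to Ciita are lower in the knockdown-labelled libraries than in all others. Those of H2-Ob and H2-DMb2 to the B cell gene Cd79a overlap between the groups. Ciita and Cd79a are unlike denominators, so the panels do not set these genes apart from each other.

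As a description of likeness, Pearson correlations of log2 CPM were taken over the 9 libraries, which share 3 groups and so are not independent points. H2-Aa, H2-Ab1, H2-Eb1, Cd74, H2-DMa and H2-DMb1 had correlations of 0.93 to 0.99 with each other, and Ciita had 0.80 to 0.96 with these 6 genes. H2-DMb2, H2-Oa and H2-Ob had correlations of 0.80 to 0.87 with each other and of -0.16 to 0.60 with the other 7 genes. Taken on deviations from group means, the values were 0.82 to 0.98 for the 6 genes and 0.85 to 0.96 for the 3 genes. Between the 3 genes and the other 7 they were 0.10 to 0.82, and H2-Oa had 0.51 to 0.76 with the 6 genes. Ciita had 0.04 to 0.36 with the 6 genes and 0.53 to 0.82 with the 3 genes. The genes most like the average of the 10 were Rab19 (0.977), Sharpin (0.968), Ccdc92b (0.964), Gpsm3 (0.959) and Mettl17 (0.957), from 14106 genes compared. In a look added after the values were seen, the genes most like Ciita were the interferon-induced genes Iigp1 (0.991), Ifit3 (0.988), Gbp11 (0.986), Irgm2 (0.986) and Gbp5 (0.985). Those most like H2-Ob were the immunoglobulin delta gene Ighd (0.984), the chemokine receptor genes Cxcr5 (0.956) and Ccr7 (0.939), Zfp287 (0.934) and Fcrl1 (0.931).

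The B cell genes followed the libraries of H2-Ob. Cd79a, a signalling chain of the B cell receptor, was at 16.4, 33.9 and 25.0 CPM in normoxia, at 38.6, 18.1 and 27.4 CPM in hypoxia and at 22.6, 29.9 and 19.4 CPM in the knockdown-labelled group. H2-Ob counts per Cd79a count were 1.07 to 1.58, 1.29 to 1.58 and 1.15 to 1.29 in these groups, a narrower span than that of H2-Ob itself. H2-DMb2 per Cd79a was 0.579 to 0.707, 0.643 to 0.972 and 0.681 to 0.840. Overlap of hypoxia with normoxia was not particular to these genes. H2-Aa per Cd79a was 9.52 to 22.2, 12.9 to 27.1 and 24.3 to 25.8, with only the knockdown-labelled and normoxia libraries apart. H2-DMb1 per Cd79a was 1.41 to 2.83, 1.72 to 3.68 and 3.74 to 4.44, with the knockdown-labelled group above both others. None of the 10 B cell markers passed in hypoxia against normoxia or in knockdown-labelled against hypoxia libraries in edgeR (0 and 3 at an unadjusted p under 0.05; 0 and 1 in DESeq2; none in limma-voom). Their summed level was 110 to 235, 144 to 259 and 126 to 168 CPM. Against normoxia, Fcer2a alone was lower in the knockdown-labelled group (-1.33, adjusted p = 0.041). Counts of the H2-O genes per 100 of the H2-DM genes were 27.3, 52.8 and 30.3 in normoxia and 38.9, 22.9 and 24.3 in hypoxia. In the knockdown-labelled libraries they were 15.8, 17 and 16.1, each below the other 6. In the denominator, H2-DMa (1.12) and H2-DMb1 (1.06) were higher in that group than in normoxia. Unchanged H2-O genes would therefore give a lower ratio too, and neither H2-O gene passed in any comparison.

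Some markers of other class II-bearing and neighbouring cells were higher in hypoxia and others were not, and their part in the class II rise was not tested. Of 10 conventional dendritic cell markers, Itgax (1.11, adjusted p = 0.016) and the cross-presenting cell receptor gene Xcr1 (1.17, adjusted p = 0.035) were higher in edgeR, where limma-voom called 1 of the list, and the lineage markers Flt3 (0.42, adjusted p = 0.44) and Zbtb46 (-0.32, adjusted p = 0.15) did not pass. Only 5 of the 10 dendritic cell markers had a log2 fold change above 0 in hypoxia, and their median was 0.18. The summed level of this list was 169 to 184 CPM in normoxia, 187 to 213 CPM in hypoxia and 172 to 202 CPM in the knockdown-labelled group. Within that sum, Itgax alone had a mean of 33.2 CPM in normoxia and 71.7 CPM in hypoxia. Of 10 markers of monocytes and interstitial macrophages 4 were higher in hypoxia (3 passed in limma-voom and 6 in DESeq2), among them C1qb (0.75, adjusted p = 0.0063) and Ly6c2 (2.14, adjusted p = 0.012). Their sum went from 323 to 343 CPM in normoxia to 433 to 546 CPM in hypoxia and 612 to 702 CPM in the knockdown-labelled group, where C1qb (0.70, adjusted p = 0.0062) and C1qa (0.87, adjusted p = 0.031) were higher than in hypoxia. All 10 T and NK cell markers were higher in hypoxia (sum 51.5 to 63.7 CPM in normoxia, 201 to 664 CPM in hypoxia), and in the knockdown-labelled group (229 to 325 CPM) 6 of them were lower than in hypoxia in edgeR. In limma-voom 6 and 3 of the 10 passed in these comparisons. Those called lower in the second in edgeR were the T cell genes Cd3e, Cd3d, Cd3g, Cd8a, Cd8b1 and Trac. Cd4 (-1.70, adjusted p = 0.053) and Nkg7 (-1.06, adjusted p = 0.23) did not pass there. Nor did the NK cell receptor gene Ncr1 (0.81, adjusted p = 0.24) and the granzyme gene Gzma (-0.10, adjusted p = 0.96).

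None of 8 alveolar macrophage markers passed in either of these 2 comparisons in edgeR, DESeq2 or limma-voom (1 and 3 at an unadjusted p under 0.05 in edgeR), and 3 were higher in the knockdown-labelled group than in normoxia. Their sum was 563 to 715 CPM in normoxia, 724 to 801 CPM in hypoxia and 646 to 1375 CPM in the knockdown-labelled group. None of 9 alveolar type 2 markers passed in the first 2 comparisons by any of these tools (1 in each at an unadjusted p under 0.05), and their sum was 29090 to 30760 CPM in normoxia and 27750 to 36710 CPM in hypoxia. In the knockdown-labelled group it was 33130 to 43390 CPM, above each normoxia library. Against normoxia, 8 of the 9 had a log2 fold change above 0 there (median 0.33), and the 1 that passed in edgeR was Abca3, which was lower (-0.35, adjusted p = 0.043); 5 passed in DESeq2. Of 5 plasmacytoid dendritic cell markers, Bst2, which is also an interferon-induced gene, was higher in the knockdown-labelled group than in hypoxia (1.40, adjusted p = 0.00025). No other marker of this list passed there. Only 2 of the 5 had a log2 fold change above 0, and the median was -0.14, so Bst2 did not stand for its list. Of 8 endothelial markers, Cldn5 (-0.75, adjusted p = 0.020) and Vwf (-0.60, adjusted p = 0.022) were lower in hypoxia, and the sum of the list was 4147 to 4849 CPM in normoxia, 3410 to 3870 CPM in hypoxia and 3361 to 3549 CPM in the knockdown-labelled group.

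On the interferon gamma route to Ciita, the cytokine gene Ifng and the transcription factor gene Irf1 changed, and genes of the receptor and its kinases did not pass. Ifng had no count in the 3 normoxia libraries, 38, 8 and 35 counts in hypoxia and 18, 20 and 21 counts in the knockdown-labelled libraries. Against the floor of 3 counts per library its mean level was at least 8.30-fold higher in hypoxia (adjusted p = 0.0097) and at least 6.43-fold higher in the knockdown-labelled group (adjusted p = 0.0070). Irf1, which binds the interferon-responsive Ciita promoter, was at 118 ± 2.4 CPM in normoxia and 140 ± 23 CPM in hypoxia (0.24, adjusted p = 0.31). Under the knockdown label Irf1 was at 284 ± 25 CPM, higher than in hypoxia (1.02, SE 0.12, adjusted p = 0.00065). Between the latter groups Ifng did not pass (-0.37, 95% interval -1.60 to 0.86, adjusted p = 0.90). The receptor genes Ifngr1 (0.09, 0.02 and 0.11) and Ifngr2 (-0.14, 0.02 and -0.12) did not pass in hypoxia against normoxia, knockdown-labelled against hypoxia or knockdown-labelled against normoxia libraries. Nor did the kinase genes Jak1 (0.26, -0.20 and 0.06) and Jak2 (0.02, 0.10 and 0.12), or Socs1 (-0.09, 1.31 and 1.22), which encodes a feedback inhibitor. The adjusted p of Socs1 was 0.93, 0.11 and 0.053. The Ciita promoters used by dendritic cells, B cells and interferon cannot be told apart in counts per gene.

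Of 7 genes of the complex that brings Ciita to the X and Y boxes none passed in hypoxia against normoxia (median 0.00) or in knockdown-labelled against hypoxia libraries (median -0.11) in edgeR, DESeq2 or limma-voom, with 1 and 2 at an unadjusted p under 0.05 in edgeR. Against normoxia, Rfx5, an X box binding subunit, was higher in the knockdown-labelled group (0.47, adjusted p = 0.046) and Nfya, a Y box binding subunit, was lower (-0.48, adjusted p = 0.0039). The summed level of the 7 genes was 290 to 297 CPM in normoxia, 280 to 287 CPM in hypoxia and 258 to 263 CPM in the knockdown-labelled group. Of 10 genes of lysosomal processing and class II turnover, none passed in hypoxia in edgeR, where 4 had an unadjusted p under 0.05, or in limma-voom, and 1 passed in DESeq2. In the knockdown-labelled group 2 of them were higher than in hypoxia, Ctss (0.67, adjusted p = 0.026), the protease that trims the invariant chain, and Sppl2a (0.42, adjusted p = 0.022), which cleaves its membrane stub. Ctss stood at 126 ± 11 CPM in normoxia, 181 ± 15 CPM in hypoxia and 288 ± 54 CPM in the knockdown-labelled group. Against normoxia 5 of the 10 were higher in the knockdown-labelled group, among them Ctss (1.19, adjusted p = 0.00028) and the thiol reductase gene Ifi30 (0.63, adjusted p = 0.0089).

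The class II genes other than Cd74 and Ciita lie on chromosome 17 between 34092340 (H2-Oa) and 34316674 (H2-Eb1) in GRCm38, interleaved with genes that serve class I presentation. Between H2-DMb1 and H2-Ob lie Psmb9, Tap1, Psmb8 and Tap2, which encode proteasome subunits and the peptide transporter. Psmb9 (0.88, adjusted p = 0.014), Tap1 (1.18, adjusted p = 0.0074) and Psmb8 (0.89, adjusted p = 0.022) were higher in hypoxia than in normoxia, and all 4 were higher in the knockdown-labelled group than in hypoxia, Tap1 most (1.45, adjusted p = 0.0015) and Tap2 by 0.74 (adjusted p = 0.040). Brd2, between H2-Oa and H2-DMa, gave 0.04 and 0.15 in these comparisons (adjusted p = 0.83 and 0.43). Notch4, beyond H2-Eb1, gave -0.14 and -0.04 (adjusted p = 0.54 and 0.94), and Btnl2 had 4 to 36 counts a library. In hypoxia against normoxia, then, called genes of both kinds stood beside uncalled ones along the region, and between the knockdown-labelled and hypoxia libraries the called run went from H2-DMb1 to Tap2 without H2-Ob, H2-Ab1, H2-Aa or H2-Eb1. Ciita is a gene of the plus strand of chromosome 16, from 10480059 to 10528418, and Cd74 is on chromosome 18.

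**Figure D4:**
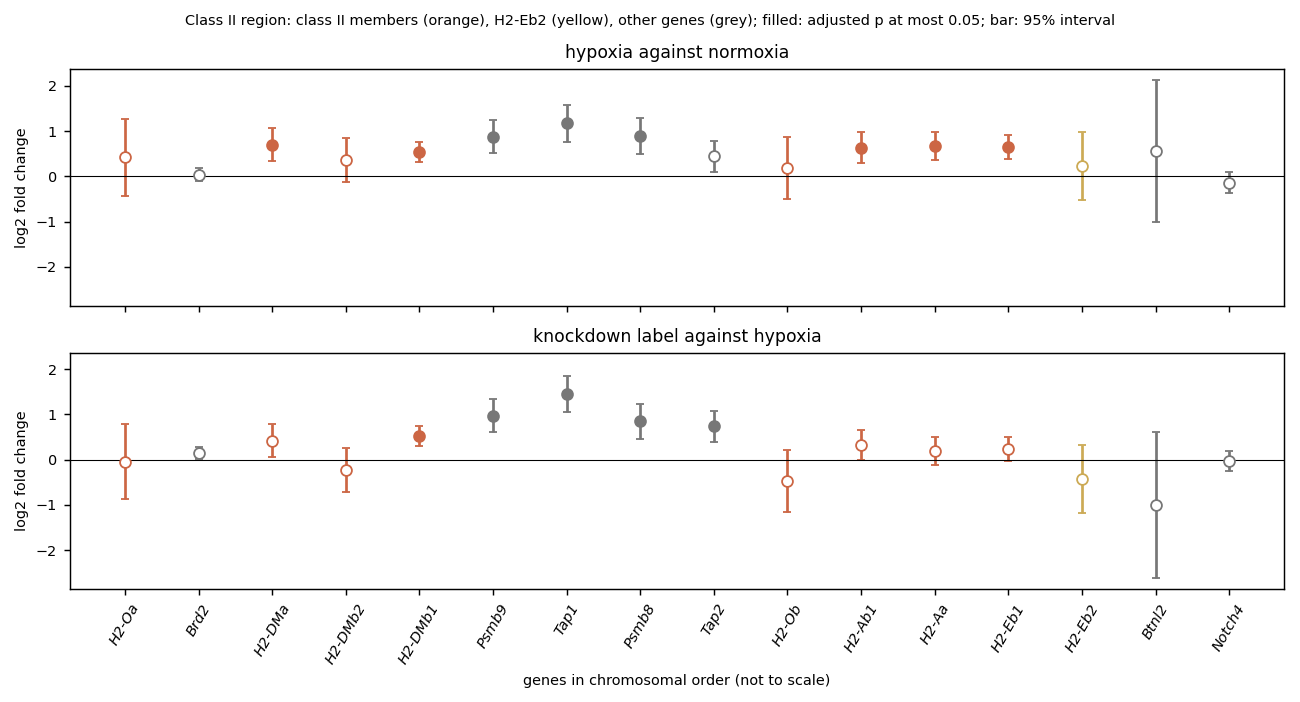
Log2 fold changes (vertical axes, bars: 95% intervals) of the genes of the class II region in their order along chromosome 17, in hypoxia against normoxia above and in knockdown-labelled against hypoxia libraries below. In the lower panel the filled points, those with an adjusted p of at most 0.05, are H2-DMb1, Psmb9, Tap1, Psmb8 and Tap2, from 0.52 to 1.45.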

How the data were processed

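The authors deposited a table of raw read counts, whole numbers for each gene and each of 9 libraries. Per the labels' protocols, libraries were made with an NEBNext Ultra kit. The submitters' processing notes name HISAT2, TopHat, StringTie, bcl2fastq, DESeq, limma and build mm10. The sources used here do not name versions, the counting program or strand handling. Gene positions of the table equal those of GENCODE M21 (GRCm38) for 651 of 30400 shared identifiers, so positions printed here come from GENCODE M21 by identifier, as do exon lengths (all exons of a gene merged).

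Counts were fitted with edgeR 4.0.16 in R 4.3.3 (filterByExpr, TMM, 1 coefficient per group over 9 libraries, quasi-likelihood F-test), and p-values were adjusted over 17578 genes with a threshold of 0.05. SEs were derived from the F statistic. Chi-square per degree of freedom between replicates was 12.6 to 25.1, far above sampling noise. The fit was tested on simulated data. Alternatives were DESeq2 1.42.0 (size factors within edgeR, and its own Wald test), limma-voom (limma 3.58.1), no filter, 1 CPM in 3 libraries, the 6 libraries compared, a replicate block, and each library left out. The genes and lists were chosen with earlier results of these data known. Named genes were the 10 genes, Ifng, Irf1 and Hif1a, and up to 4 list members with an adjusted p of at most 0.05. Flt3, Zbtb46, Cd79a, H2-Ea, H2-Eb2, Ifngr1, Ifngr2, Jak1, Jak2 and Socs1 were named after their values were seen. So were the T and NK cell markers and the region's other genes. A further gene of that rule, and the counts of its list, are not reported here.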

Additional observations from a re-analysis of the deposited data

How the results depend on the processing

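Of 480 values of single genes over 16 alternatives, 430 kept their direction and side of the threshold, 41 lost the call and 9 changed sign. The 7 genes higher in hypoxia than in normoxia kept a positive value in all 112 such values (0.51 to 0.96). Their number was 0 to 7 when 1 library was left out, the number higher in the knockdown-labelled group than in hypoxia 1 to 2, the number differing among the 3 groups 4 to 7, and the number higher in the knockdown-labelled group than in normoxia 7 throughout. With the replicate block, 3 and 1 genes passed in the first 2 comparisons, and with only the 6 libraries compared 1 passed between the knockdown-labelled and hypoxia libraries; the cause was not tested. Whether the replicate numbers pair the samples is not known. Same-numbered libraries had correlations of -0.58 to 0.40 in their deviations from group means, which cannot settle it with 3 libraries a group. With 1 library left out, the log2 fold changes that changed sign spanned -0.13 to 0.64 (H2-Ob, hypoxia against normoxia), -0.44 to 0.29 (H2-Oa) and -0.0086 to 0.35 (Cd74) in knockdown-labelled against hypoxia, and -0.053 to 0.43 (H2-DMb2), -0.018 to 0.72 (H2-Oa) and -0.48 to 0.15 (H2-Ob) against normoxia, none of them called. Over all genes, 487 genes were higher and 255 lower in hypoxia than in normoxia (138 to 750 and 71 to 248 without 1 library, 267 to 851 and 118 to 495 in the other alternatives). In knockdown-labelled against hypoxia libraries these numbers were 222 and 79 (159 to 242 and 30 to 243, 158 to 376 and 39 to 268), and against normoxia 842 and 604 (457 to 935 and 258 to 632, 584 to 1147 and 352 to 927). H2-Oa, with the fewest counts (39 to 108 a library), had SEs of 0.38 in the first 2 comparisons, and H2-Ob 0.31.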
